A study of Mus musculus with 2 samples.

Results

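The Mir29 family of microRNA (miRNA) genes was examined in gastrocnemius, the large calf muscle, of aged mice. Its members were taken by gene symbol from the annotation used for counting, by a rule that uses no measured value, and number 4 (Mir29a, Mir29b-1, Mir29b-2 and Mir29c) of 2202 annotated miRNA genes. The tissue came from adult females of B6CASTF1/J, an F1 hybrid strain, aged 18 to 20 months, with no treatment or engineered allele named in the labels. The series consists of 2 microRNA-seq libraries in 1 group, numbered as biological replicates 1 and 2. The labels give both the same donor entry and separate tissue entries, so their spread may be technical, and there is no younger, treated or diseased group to set them against.

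MiRNAs are short RNAs cut from a hairpin, and the 5p and 3p arms of the hairpin can each become a mature miRNA. The seed, bases 2 to 8 of the mature strand, pairs with sites in the 3′ untranslated regions (UTRs) of messenger RNAs and lowers their stability and translation. The Mir29 genes lie in a pair of clusters on different chromosomes and give mature 3p strands with a common seed. They are known as repressors of collagens and other extracellular matrix genes, with a role in limiting fibrosis, and in mouse muscle miR-29b has been linked to atrophy through Igf1 and Pik3r1.

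The mature strands are shown first because they decide what a gene count can hold. In the RefSeq sequences (build GRCm38.p6) all 4 genes carry a 3p strand with the seed in capitals below, and no other gene among 1738 mature entries carries it.
miR-29a-3p (22 bases, from Mir29a): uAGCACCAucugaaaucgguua
miR-29c-3p (22 bases, from Mir29c): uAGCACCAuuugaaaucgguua
miR-29b-3p (23 bases, from both Mir29b-1 and Mir29b-2): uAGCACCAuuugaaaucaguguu
Counted from 1 at the 5′ end, miR-29a-3p and miR-29c-3p differ by 1 substitution, C10U (miR-29a-3p first), so 21 of 22 bases are identical. From miR-29c-3p to miR-29b-3p the substitutions are G18A, U21G and A22U. The seed does not separate the family members, whereas these bases outside it do.

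MiR-29b-3p is written identically in both of its genes. Among all annotated hairpins, the strand was found whole in 2, Mir29b-1 and Mir29b-2, while miR-29a-3p and miR-29c-3p were each found in 1. The Mir29b-1 and Mir29b-2 hairpins share an unbroken run of 25 bases, made of the 23 bases of the 3p strand and the 2 bases before it. The files give reads that match several places a tally of their own and no gene, so an exact read from inside that run, which matches both places equally, would not be counted for either Mir29b gene. The levels of Mir29b-1 and Mir29b-2 are therefore taken as lower bounds, and exact reads of miR-29b-3p, the strand with the family seed, would not be among the gene counts. The multimapping reads themselves were not analysed here. The 5p strands of these genes do tell them apart.
miR-29b-1-5p (22 bases, from Mir29b-1): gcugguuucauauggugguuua
miR-29b-2-5p (25 bases, from Mir29b-2): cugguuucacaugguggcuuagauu
Each of these 5p strands was found in 1 annotated hairpin. The counts do not say which arm a read came from. Between the other members the longest shared runs were 22 bases for Mir29b-1 with Mir29c, 19 for Mir29b-2 with Mir29c and 14 for Mir29a with Mir29c. Outside the family the longest run shared with any hairpin was 13 bases.

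On mm10, Mir29a (ENSMUSG00000065610.1) lies on chromosome 6 from 31062660 to 31062747 and Mir29b-1 (ENSMUSG00000065604.2) from 31063023 to 31063093, both on the minus strand and 275 bases apart. Mir29a overlaps no other annotated gene, and Mir29b-1 overlaps the long intergenic RNA Gm27019 by 2 bases on the same strand. Mir29b-2 (ENSMUSG00000065412.3) lies on chromosome 1 from 195037040 to 195037120 and Mir29c (ENSMUSG00000065548.1) from 195037547 to 195037634, both on the plus strand and 426 bases apart. Both hairpins lie within exon 3 of a transcript of the noncoding gene A330023F24Rik on the same strand. They also lie opposite exon 11 of Cd46, a complement regulator gene on the other strand. None of the 4 genes had a single antisense count in either library.

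**Figure D1:**
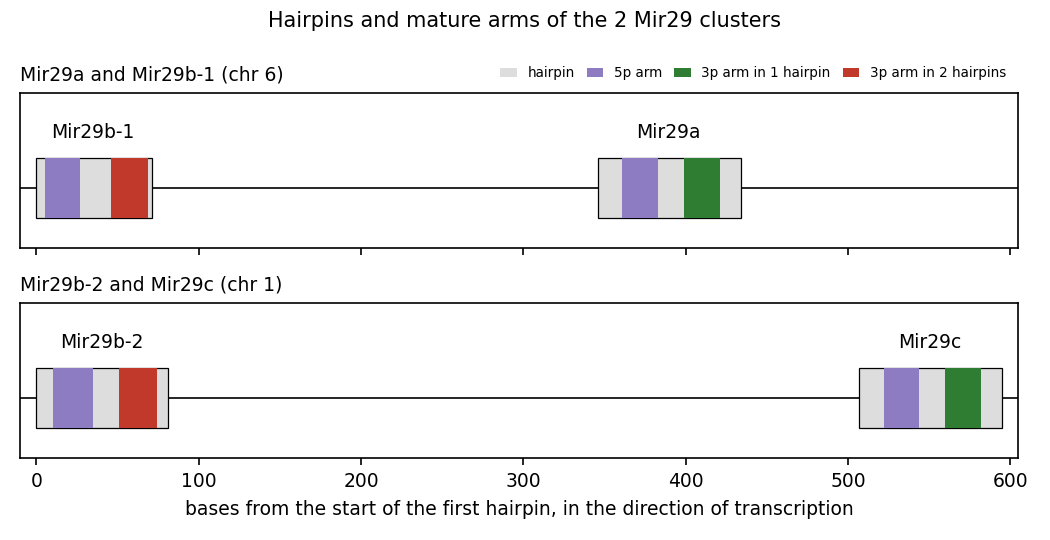
Map of both Mir29 clusters to scale, with the x axis in bases from the start of the first hairpin in the direction of transcription. Grey boxes are hairpins and coloured boxes are mature arms; the Mir29b hairpin comes first in each cluster, 275 bases before Mir29a and 426 bases before Mir29c, and the red 3p arm is the one found in 2 hairpins.

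The libraries held 865419 gene counts on the sense strand in replicate 1 and 2177048 in replicate 2, which is 2.52 times as many in replicate 2. Multimapping reads took 80.7% and 71.0% of all reads, or 6.42 and 3.91 reads for every gene count. Levels are given as counts in every 1000000 gene counts (CPM), and 1 read stands for about 1 mature strand whatever the hairpin's length. The muscle marker list (Mir206, Mir208b, Mir499 and the Mir1a and Mir133 genes) held 4.09% of gene counts in replicate 1 and 10.4% in replicate 2, and smooth muscle markers Mir143 and Mir145a held 7.54% and 3.80%. The lists of endothelium (4.73% and 5.30%), leukocytes (0.362% and 0.408%), fibroblasts (0.0633% and 0.138%) and red cells (0.0230% and 0.0316%) were also detected, and 4 of 6 neural genes had no count in either library. Members of a list did not all follow its total. Mir206 held most of the muscle total (40388 and 103232 CPM), and Mir1a-2 of that list was higher in replicate 1 (270 and 162 CPM). Mir1a-1 was slightly higher there too (25.4 and 22.0 CPM), and the other muscle genes were lower. Mir142 and Mir223 of the leukocyte list were also higher in replicate 1. So were Mir199a-2, Mir199b and Mir199a-1 of the fibroblast list, on few counts. The interval of the Mir199b ratio includes equal levels. Mir214, the other fibroblast gene, was lower in replicate 1 and held most of the fibroblast total. The endothelium total was Mir126a alone, since Mir126b had no count in either library. In such bulk tissue, fewer cells of a type and less RNA per cell cannot be told apart, and the part of these lists in the Mir29 values was not tested.

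By gene counts, which leave out multimapping reads, Mir29a was an abundant miRNA gene of this muscle. The family's gene counts were almost wholly Mir29a and Mir29c. The family held 15514 of 865419 gene counts in replicate 1, a share of 1.79% (exact Clopper-Pearson 95% interval 1.76 to 1.82), and 36890 of 2177048 in replicate 2, a share of 1.69% (1.68 to 1.71). The mean share was 1.74% ± 0.0694 (SD, n = 2). Intervals here and below cover counting error of reads only. The reads carry no molecular identifiers, so copies of a molecule cannot be told from separate molecules. The family's share of gene counts was thus close to equal in both libraries, although its intervals do not overlap.

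Mir29a, the source of miR-29a-3p, had 12283 counts in replicate 1 and 32202 in replicate 2, which are 14193 and 14792 CPM (mean 14492 ± 423, SD, n = 2). By CPM, which leaves out multimapping reads, it stood at rank 18 and rank 17 of all miRNA genes. It made up 79.2% and 87.3% of the family's counts. Its level in CPM was thus nearly the same in both libraries, which depends on the total used, as given below.

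Mir29c, whose 3p strand differs from that of Mir29a by a single base, had 3178 counts (3672 CPM) in replicate 1 and 4455 counts (2046 CPM) in replicate 2 (mean 2859 ± 1150, SD, n = 2). Its ranks were 37 and 43, and it made up 20.5% and 12.1% of the family's counts. Mir29c was the second member in both libraries and lay below Mir29a in each.

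Mir29b-1, the cluster partner of Mir29a, had 33 counts in replicate 1 and 178 in replicate 2. Its level was 38.1 CPM (95% Poisson interval 26.2 to 53.6) and 81.8 CPM (70.2 to 94.7), with a mean of 59.9 ± 30.9 (SD, n = 2), at ranks 171 and 162. Mir29b-2, the partner of Mir29c, had 20 counts in replicate 1 and 55 in replicate 2. Its level was 23.1 CPM (14.1 to 35.7) and 25.3 CPM (19.0 to 32.9), with a mean of 24.2 ± 1.52, at ranks 204 and 233. Mir29b-1 made up 0.213% and 0.483% of the family's counts and Mir29b-2 0.129% and 0.149%, and both levels are the lower bounds described above. From high to low the order was Mir29a, Mir29c, Mir29b-1 and Mir29b-2 in both libraries. The intervals of neighbours in this order did not overlap, except those of Mir29b-1 and Mir29b-2 in replicate 1.

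**Figure D2:**
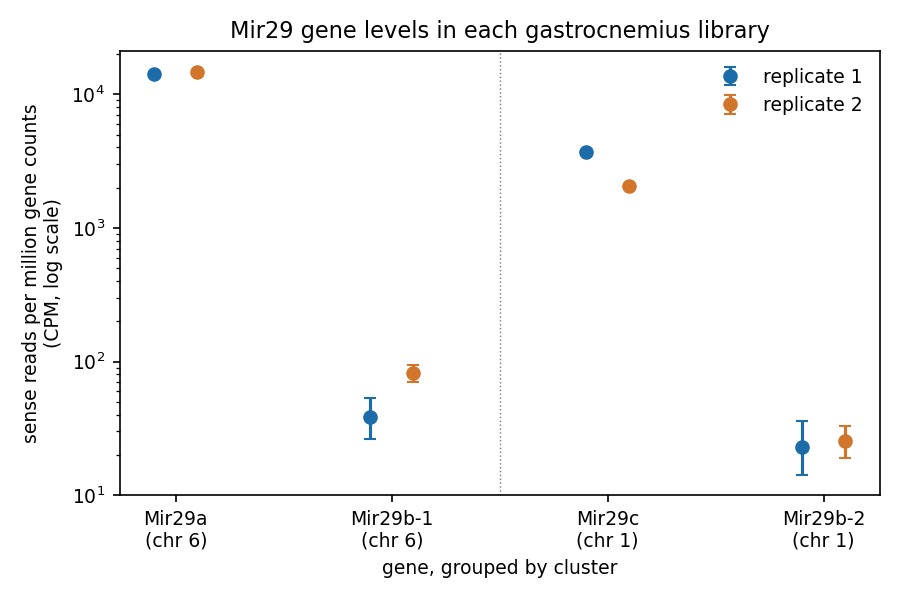
Sense counts in CPM (log scale) of the 4 Mir29 genes in each library, grouped by cluster, with 95% Poisson intervals for counting error. Mir29a and Mir29c sit between 2046 and 14792 CPM in both libraries, and Mir29b-1 and Mir29b-2 between 23.1 and 81.8 CPM.

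Within each cluster the gene with its own mature strand was counted over 80 times as often as its Mir29b partner. Mir29a exceeded Mir29b-1 by 372 to 1 in replicate 1 (exact conditional binomial 95% interval 265 to 541) and by 181 to 1 in replicate 2 (156 to 211), a mean log2 ratio of 8.02 ± 0.74 (SD, n = 2). Mir29c exceeded Mir29b-2 by 159 to 1 in replicate 1 (103 to 260) and by 81.0 to 1 in replicate 2 (62.1 to 108), a mean log2 ratio of 6.83 ± 0.69. The members of a cluster were therefore counted at very unequal levels in both libraries. Because the lower partner is a lower bound, each ratio is an upper bound on the ratio with all miR-29b-3p reads included. This takes the count of the higher partner as it stands. The whole miR-29c-3p strand was found in Mir29c alone. Exact reads inside the runs of 22 and 19 bases that Mir29c shares with Mir29b-1 and Mir29b-2 would be left out of its count too. Counted per base of hairpin, an alternative added after the data were seen, the log2 ratios were 7.71 and 6.71.

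Between the clusters, the chromosome 6 gene had the higher count of each like pair. Mir29a exceeded Mir29c by 3.87 to 1 in replicate 1 (3.72 to 4.02) and by 7.23 to 1 in replicate 2 (7.01 to 7.46), a mean log2 ratio of 2.40 ± 0.64 (SD, n = 2). Mir29b-1 exceeded Mir29b-2 by 1.65 to 1 in replicate 1 (0.919 to 3.03) and by 3.24 to 1 in replicate 2 (2.38 to 4.46), a mean log2 ratio of 1.21 ± 0.69. The interval of the Mir29b pair includes equal counts in replicate 1 and not in replicate 2. Both Mir29b levels are lower bounds, so their order is one of gene counts only.

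The ratios differed between the libraries by similar factors. The ratio of Mir29a to Mir29b-1 was 2.06 times as high in replicate 1 as in replicate 2 (exact conditional interval 1.41 to 3.08), and the ratio of Mir29c to Mir29b-2 was 1.96 times as high (1.15 to 3.46). The ratio of Mir29a to Mir29c was 0.535 times as high in replicate 1 (0.508 to 0.562), and that of Mir29b-1 to Mir29b-2 was 0.510 times as high (0.260 to 1.02). These 4 comparisons rest on the same 8 counts and are not independent. Differences of this size were common: of 70 neighbouring pairs of miRNA genes in the data, 26, or 37.1%, had a partner ratio that differed at least 2-fold between the libraries, among them Mir29a with Mir29b-1 and not Mir29c with Mir29b-2.

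**Figure D3:**
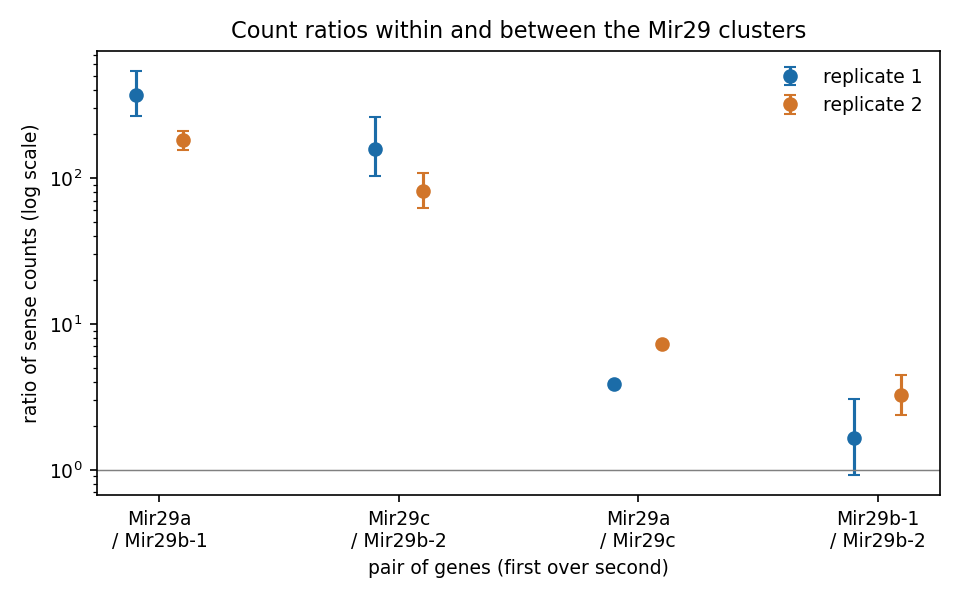
Ratio of sense counts (log scale) for the cluster partners and for the like genes of both clusters, in each library, with exact conditional binomial 95% intervals. Both partner ratios are higher in replicate 1 (372 and 159) than in replicate 2 (181 and 81.0), and both ratios between clusters are lower there.

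The Mir29 pairs were among the most unequal neighbours. Neighbouring pairs were taken as adjacent miRNA genes on the same strand, at most 10 kb apart, each with a mean count of 10 or more. By the log2 ratio of the higher to the lower partner, Mir29a with Mir29b-1 held rank 2 and Mir29c with Mir29b-2 rank 7 of 70 pairs, whose median was 2.74. In 19 of these pairs at least 1 partner held a mature sequence found whole in another annotated hairpin, and their median log2 ratio was 5.61 (quartiles 1.90 and 6.84). In the other 51 pairs the median was 2.53 (1.09 and 3.31), and they include the most unequal pair of all, Mir206 with Mir133b at 10.4. These other pairs include genes with no RefSeq mature sequence matched to their hairpin, such as Mir1a-2 and Mir133a-1. For those genes sharing is not known, so the class is not made only of unshared strands. In 17 pairs exactly 1 partner held a shared sequence, and it was the lower partner in 14 of them, a number that includes both Mir29 pairs. These are descriptions, and no test was made.

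Other genes with a shared mature sequence were found on both sides of the Mir29b levels. Of the 305 miRNA genes whose mean count was 10 or more, 44 held a mature sequence shared with another hairpin, with a median of 139 CPM, against 73.9 CPM for 232 genes with none shared in the RefSeq table. The remaining 29 genes had no RefSeq mature sequence matched to their hairpin. These medians leave out genes below the filter, to which genes with few uniquely placed reads belong, so they say nothing of how a shared strand affects a count. Mir29b-1 had 30 of those 44 genes above it, and Mir29b-2 had 37.

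**Figure D4:**
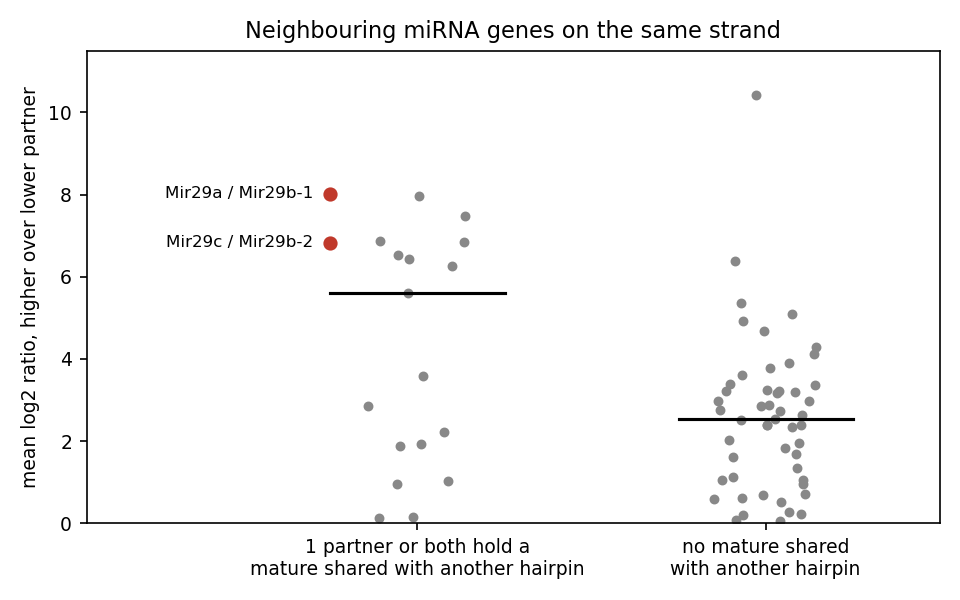
Mean log2 ratio of the higher to the lower partner for neighbouring miRNA genes on the same strand, 1 point per pair, with the median of each class as a line. The class without a shared mature sequence also holds genes with no RefSeq mature sequence matched to their hairpin. Red points mark Mir29a with Mir29b-1 at 8.02 and Mir29c with Mir29b-2 at 6.83, both above the median of 5.61 for pairs with a shared mature sequence.

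Between the libraries, Mir29a was close to equal by CPM, Mir29b-1 was lower in replicate 1 and Mir29c was higher in replicate 1. The interval of Mir29b-2, on few counts, was too wide to tell equal levels from a difference of nearly 2-fold. The comparison is of 2 libraries of the same group and of no condition, so no p-value was taken. All 4 members passed the filter, a mean count of 10 or more. The ratio of CPM in replicate 1 to CPM in replicate 2 was 0.960 for Mir29a (0.940 to 0.980) and 0.915 for Mir29b-2 (0.519 to 1.55). It was 0.466 for Mir29b-1 (0.311 to 0.679) and 1.79 for Mir29c (1.71 to 1.88).

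Mir29b-1 alone of the 4 members lay past a 2-fold difference with library totals. Among all 305 genes that passed the filter, 37.7% did so, 30.5% toward replicate 2 and 7.21% toward replicate 1, so 1 of 4 members is not above the background. The median log2 ratio of those genes was -0.43 with an SD of 1.25, and 91.5% of them lay at or below the ratio of Mir29c, against 28.9% for Mir29b-1. The calls depended on the scaling. Mir29b-1 was within 2-fold at a log2 ratio of -0.82 with trimmed mean of M values (TMM) scaling and of -0.68 with DESeq2 size factors, against -1.10 with totals. Mir29c passed 2-fold with either scaling, at log2 ratios of 1.13 and 1.26, against 0.84 with totals. Mir29a (0.22 and 0.36, against -0.06 with totals) and Mir29b-2 (0.15 and 0.29, against -0.13) changed sign and stayed within 2-fold. These scalings raise every log2 ratio by 0.28 and 0.42, and the share of 2-fold differences that lay toward replicate 2 was 70.1% and 62.3% with them, against 80.9% with totals. Ratios within a library do not change with scaling.

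**Figure D5:**
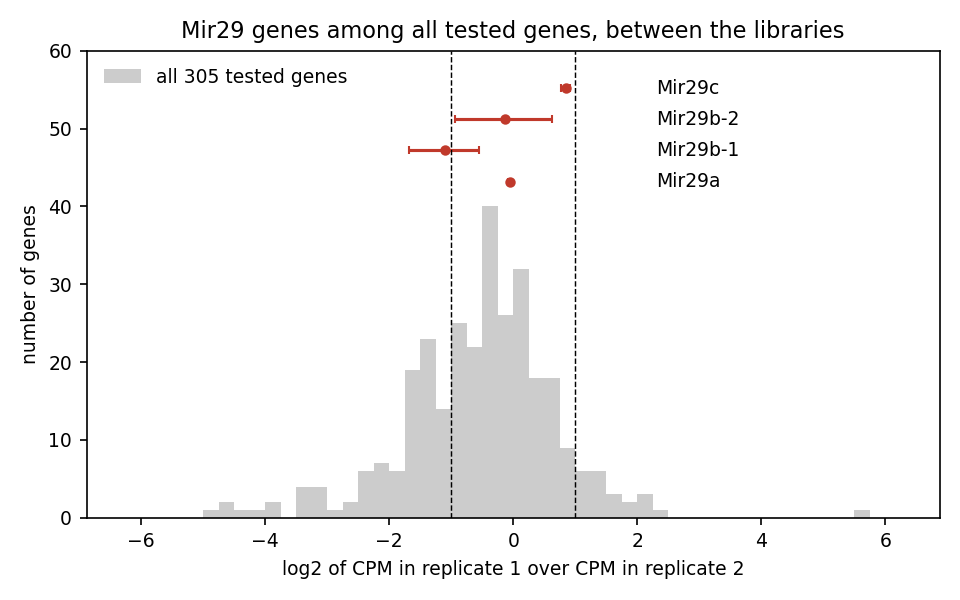
Number of genes by log2 of CPM in replicate 1 over CPM in replicate 2 for 305 tested miRNA genes (grey), with the 4 Mir29 genes and their exact 95% counting intervals in red above them. Dashed lines mark a 2-fold difference; Mir29b-1 lies outside them at -1.10 and the other members lie inside.

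Genes at the same level as each member were named by their distance in log2(CPM + 1) over both libraries, which with 2 libraries describes level more than pattern. Mir139 (11245 and 15659 CPM) and Mir100 (15317 and 10436 CPM) were nearest to Mir29a. Mir361 (3917 and 2205 CPM) and Mir99b (2670 and 2333 CPM) were nearest to Mir29c. Mir3058 and Mir92-2 were nearest to Mir29b-1, and Mir5113 and Mir7j to Mir29b-2, all between 20.8 and 76.3 CPM.

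Mir29a, at a mean of 14492 CPM, had a higher mean gene count in CPM than each gene of the fibrosis list, with Mir21a the nearest at 10580 CPM. This list and the muscle mass and atrophy list below were chosen with earlier results of these data known. The order within them is a description only. Mir21a, a miRNA that promotes fibrosis, had 15929 CPM in replicate 1 and 5232 CPM in replicate 2. Mir155 followed at 1776 ± 487 CPM (SD, n = 2), then Mir214 at 949 ± 545 CPM, Mir101b at 749 ± 225 CPM, Mir30c-2 at 713 ± 119 CPM and Mir34a, a p53 target, at 577 ± 166 CPM. Mir29c, at a mean of 2859 CPM, was above each of these but Mir21a in the mean. The order was not the same in each library: Mir21a was above Mir29a in replicate 1, and Mir155, at 2120 CPM, was above Mir29c, at 2046 CPM, in replicate 2. Mir30c-2, like the Mir26a and Mir199 genes, Mir30c-1 and Mir101a of this list, holds a shared mature sequence, so these levels may be lower bounds and the order is one of gene counts only. Of 17 genes in the list, 15 passed the filter, with 4 past 2-fold toward replicate 1 and 2 toward replicate 2, where 7.21% and 30.5% of all 305 genes were past it. Their median log2 ratio was -0.48, against -0.43 for all 305 genes.

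Among miRNAs linked to muscle mass and atrophy, Mir29a lay below Mir206 and Mir23a and above the others found. Mir206, a miRNA of skeletal muscle, had 40388 CPM in replicate 1 and 103232 CPM in replicate 2. Mir23a, which represses the atrophy ligases Fbxo32 and Trim63, had 40042 and 40739 CPM. Mir486, which is known to promote growth signalling in muscle, stood at 3476 ± 597 CPM, Mir322 at 2993 ± 45.0 CPM, Mir27a at 990 ± 181 CPM and Mir1a-2 at 216 ± 76.5 CPM (SD, n = 2). Of 16 names, 12 matched the annotation and 11 passed the filter, with 0 past 2-fold toward replicate 1 and 1, Mir206, toward replicate 2, where 7.21% and 30.5% of all 305 genes were past it. Their median log2 ratio was -0.03. The mature miR-1a-3p and miR-133a-3p strands are known to come from more than 1 gene each, so the levels of those genes may be lower bounds too.

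The files hold no messenger RNA, so neither collagens nor atrophy genes were measured. The annotated transcripts show where the Mir29 seed could pair. Sites complementary to the seed (TGGTGCT, searched on the transcript strand of the longest annotated 3′ UTR of each gene) were present in 25 of 44 collagen chain genes, or 56.8%, against 2758 of 21037 protein-coding genes, or 13.1%. The 8-base form with an A after it (TGGTGCTA, which holds the shorter one) was present in 16 collagen genes, or 36.4%, against 2.86% of all genes. The density of the shorter site was 0.693 per kb in collagen 3′ UTRs and 0.106 per kb in all, with median 3′ UTR lengths of 1032.5 and 960 bases. Of the other matrix genes searched, elastin (Eln) had 3 sites, Fbn1 had 2 and Sparc had 0, while the major collagen chain Col1a2 had 0 in this window. Among growth and atrophy genes, Yy1 had 3 sites in 4493 bases and Igf1 had 2 in 6308 bases. Pik3r1 had 1 in 4317 bases, Fbxo32 had 1 in 5587 bases and Trim63 had 1 in 714 bases. A match is a stretch of letters and not a measured site.

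The first 8-base site in 4 of these genes and the 7-base site of Pik3r1 are shown with the match in capitals, since any of the 3p strands above could pair with it. Col1a1 and Col3a1 encode fibrillar collagens, Igf1 a growth factor that maintains muscle mass, and Pik3r1 the regulatory subunit of PI3 kinase.
Col1a1 (chromosome 11): ggtgggaaggaatttcTGGTGCTAtaga
Col3a1 (chromosome 1): cttcaaaatgtctcaaTGGTGCTAtaat
Eln (chromosome 5): gcgacctcatcaacgtTGGTGCTActgc
Igf1 (chromosome 10): ttgttttttagtacaaTGGTGCTAtttt
Pik3r1 (chromosome 13): aagaggcctttaaccaTGGTGCTtgtta
The seed match is the same for miR-29a-3p, miR-29b-3p and miR-29c-3p, and the gene counts do not give the level of any of these strands.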

How the data were processed

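MicroRNA-seq was deposited by the authors as 1 count file per library, with assembly mm10 and GENCODE M21 per the file headers of the deposited README. The sources used here do not give aligner, counter, mismatch setting or adapter trimming. Each deposited file holds 4 tallies and raw read counts for 2202 miRNA genes in 3 columns without header, read from their values as unstranded, sense and antisense; the sense column was used. Tallies stayed out of library totals: multimapping reads were 80.7% and 71.0% of all reads, unmapped 5.10% and 8.17%, and reads outside genes 1.67% and 2.73%. All 2202 identifiers matched GENCODE M21.

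CPM is the count divided by the library's gene counts times 1000000. The limit that 0 counts allow is 3 counts (3.47 and 1.38 CPM). Shares have exact Clopper-Pearson, levels Poisson and ratios exact conditional 95% intervals. With 1 group there was no contrast; genes whose mean count was 10 or more were compared between the libraries by ratio, and those 2-fold or more apart were counted. Alternatives were the unstranded column, other totals, TMM (edgeR 4.0.16) and DESeq2 1.42.0 size factors, other filters, a pseudocount of 1, and each library left out. Ratio intervals were tested on simulated Poisson counts, the model they assume, which checks the calculation and not the spread between libraries. The named genes were the members, genes with the Mir29 seed, the 2 nearest genes to each member, and up to 6 genes of the fibrosis and atrophy lists. The member rule uses no measured value, but members and lists were chosen with earlier results of these data known. Mature sequences came from RefSeq (GRCm38.p6; all 4 members matched) and hairpins and 3′ UTRs from GENCODE M21; 1 gene of the growth and atrophy list is not reported here. Software was Python 3.11.15, SciPy 1.17.1, pandas 2.3.3 and R 4.3.3.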

Additional observations from a re-analysis of the deposited data

How the results depend on the processing

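The direction of the 4 ratios between members held with a pseudocount of 1, per base of hairpin and in each library alone. The unstranded column could not change these ratios, since it holds the same counts for the 4 members. Leaving out either library only gives back the family shares of the single libraries, 1.69% and 1.79%. The levels themselves depend on the total they are divided by. With the unstranded column the means were 18861 CPM for Mir29a and 31.5 CPM for Mir29b-2, and the family share was 2.27%, where reads of genes that overlap on opposite strands are not counted. Leaving the gene with the most counts out of the totals gave 17111 CPM, 28.5 CPM and 2.06%. With all reads as the total they were 2233 in 1000000 reads for Mir29a, 9.81 for Mir29b-1, 3.74 for Mir29b-2 and 416 for Mir29c. The family share was then 0.266%. These means hide a difference between the libraries. Mir29a had 12283 of 6888732 reads in replicate 1 and 32202 of 12001270 in replicate 2, a higher share in replicate 2. The family, at 15514 and 36890 of these reads, was also higher in replicate 2. The near-equality in CPM therefore does not carry over to this total. The count of genes past 2-fold between the libraries was 115 of 305, against 50 of 170 at a mean count of 100 or more and 294 of 606 without a filter. Without a filter a count of 0 also enters as 3, which can place a gene higher in the library where it had no read. The share of these genes that lay toward replicate 2 was then 40.5%, against 80.9%. No paired analysis was possible because the series has 1 group. Depth limits Mir29b-1 and Mir29b-2, at 33 and 20 counts in replicate 1.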
